A study of Mus musculus with 6 samples.

Results

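Interleukin-6 (Il6) and leukaemia inhibitory factor (Lif), 4 receptor subunits (Il6st, Il6ra, Lifr and Osmr), the transcription factor Stat3 and 3 suppressors of cytokine signalling (Socs1, Socs2 and Socs3) were read from a table of counts per gene symbol in mouse dental follicle cells. The genes were taken by symbol as the main ligands, receptors, transducer and inhibitors of the pathway, and all 10 were among the 17213 genes of the table and the 14632 genes tested. The dental follicle is the connective tissue that encloses a developing tooth before it erupts. In the GRCm38 (mm10) annotation of GENCODE, the genes on the plus strand are Il6 at chr5:30013114-30019981, Lif at chr11:4257557-4272514, Il6st at chr13:112464070-112510086 and Lifr at chr15:7090614-7197489. Those on the minus strand are Il6ra at chr3:89864059-89913196, Osmr at chr15:6813577-6874969, Stat3 at chr11:100885098-100939540, Socs1 at chr16:10782240-10785536, Socs2 at chr10:95385362-95417180 and Socs3 at chr11:117966079-117970047.

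The study set 3 KO-labelled libraries, genotype Pth1r(-/-), against 3 labelled Het, genotype Pth1r(+/-). Pth1r is the receptor for parathyroid hormone and for PTHrP, and the series text calls both genotypes conditional. All 6 libraries came from mandibular molars of mice at postnatal day 8, as cells sorted for tdTomato and labelled PTHrP+. All groups received tamoxifen, on day 3 by the series text and on day 8 by the sample descriptions. The Cre driver, the strain and the number of mice per library were not stated in the labels. Pth1r itself went against the labels, with 961, 608 and 472 CPM (counts scaled to library size) in the KO-labelled libraries and 371, 286 and 346 CPM in the Het-labelled libraries. Whole-gene counts cannot resolve transcription of a deleted part, and whether the labels were exchanged was not tested. Every direction given here is therefore that of the KO-labelled libraries relative to the Het-labelled libraries.

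Cytokines of the interleukin-6 family bind receptors that share the signalling chain gp130, the product of Il6st. Ligand binding activates Janus kinases, which phosphorylate STAT3, and STAT3 enters the nucleus and switches on target genes. Socs3 is such a target, and its protein binds gp130 and the kinases and shuts the signal off. In bone, osteoblast lineage cells respond to this family through gp130, LIFR and OSMR, and parathyroid hormone is known to induce Il6 and Lif in osteoblasts through cyclic AMP.

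Upstream sequence was available in RefSeq (GRCm38.p6) for 9 of the 10 genes, all but Socs2. The 250 bases before the RefSeq start of Socs3 are shown because Socs3 was the only member with an unadjusted p under 0.05 in the comparison of the groups, those of Socs1 because it is the other short, abundant suppressor, and those of Il6 because its CPM did not overlap between the groups. Capitals mark matches to the STAT element TTCNNNGAA, the cyclic AMP response element TGACGTCA or its short form TGACG (also counted within the long form), and the NF-kB element, searched on both strands. The RefSeq start of Socs3 lies inside the wider GENCODE span of the gene given above, so its window does too, and distances are counted from the RefSeq starts. A match is a description of letters and not evidence of binding.
Socs3 (chr11:117969367-117969616, minus strand): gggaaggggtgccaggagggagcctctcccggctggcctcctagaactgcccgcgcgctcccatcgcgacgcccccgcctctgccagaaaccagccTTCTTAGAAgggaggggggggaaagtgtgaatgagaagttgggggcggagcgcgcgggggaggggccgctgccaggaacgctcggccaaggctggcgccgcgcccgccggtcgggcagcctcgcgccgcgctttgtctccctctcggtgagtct
Socs1 (chr16:10785537-10785786, minus strand): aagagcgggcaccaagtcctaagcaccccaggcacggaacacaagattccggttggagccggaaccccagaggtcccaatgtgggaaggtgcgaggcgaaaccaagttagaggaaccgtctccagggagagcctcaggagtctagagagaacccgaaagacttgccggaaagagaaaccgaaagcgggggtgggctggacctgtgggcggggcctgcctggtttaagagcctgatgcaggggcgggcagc
Il6 (chr5:30012864-30013113, plus strand): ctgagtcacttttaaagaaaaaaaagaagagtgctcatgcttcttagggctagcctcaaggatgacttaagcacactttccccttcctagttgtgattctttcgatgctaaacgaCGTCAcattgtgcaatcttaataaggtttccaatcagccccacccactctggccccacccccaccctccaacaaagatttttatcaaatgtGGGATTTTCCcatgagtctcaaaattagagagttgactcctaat

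The Socs3 window held 1 STAT element, TTCTTAGAA, with its first base 154 bases before the RefSeq start. A STAT element stood in 7.02% of 32851 such windows over all genes, and in none of the other windows of the members. The Il6 window held a short cyclic AMP element 135 bases and an NF-kB element 44 bases before the RefSeq start. Among all windows 17.8% held the short element and 0.356% the NF-kB element. The Il6ra window also held a short element, and the windows of Socs1, Lif, Il6st, Lifr, Osmr and Stat3 held none of these letters.

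The libraries held between 51804736 and 66147200 counts in the KO-labelled libraries and between 34019925 and 63787622 in the Het-labelled libraries. The Het replicate 2 library stood apart, with the highest value of the 6 libraries for 28.0% of the genes tested and the lowest for 29.6%. Among the members it was the highest for 4 (Socs2, Il6st, Lifr and Stat3) and the lowest for 3 (Socs3, Il6 and Osmr), so values without it are given where it sets a direction. Follicle and fibroblast genes were abundant in all libraries. PTHrP's own gene Pthlh was at 303, 298 and 350 CPM in the KO-labelled libraries and at 344, 260 and 263 CPM in the Het-labelled libraries. The libraries also carried osteoblast genes such as Ibsp, at 9714 to 16424 CPM in the KO-labelled libraries and 3112 to 10458 CPM in the Het-labelled libraries. The enamel gene Ambn of the dental epithelium was at 2120 to 6067 CPM in the KO-labelled and 1493 to 3894 CPM in the Het-labelled libraries. In RNA of a whole sort, more cells of a type and more RNA per cell cannot be told apart.

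Levels of different genes were compared as FPKM, a unit that allows for transcript length and library size and was computed by the authors. Socs3 had the highest level of the members in every library, at 339 ± 121 FPKM in the KO-labelled libraries and 168 ± 58.9 FPKM in the Het-labelled libraries (SD, n = 3 each). Here and below, (KO) and (Het) mark means ± SD of the 3 KO-labelled and 3 Het-labelled libraries. The mean of Socs3 over all libraries exceeded that of 98.3% of the 17529 genes with a mean FPKM above 0. Socs1 came second in every library, at 112 ± 24.7 FPKM (KO) and 97.7 ± 25.1 FPKM (Het), above 94.6% of genes. The lead of Socs3 over Socs1 was smallest in Het replicate 2, at 123 against 120 FPKM. Socs2, at 41.9 ± 7.77 FPKM (KO) and 42.0 ± 6.97 FPKM (Het), and Stat3, at 36.1 ± 5.84 FPKM (KO) and 39.6 ± 13.5 FPKM (Het), exchanged places between libraries and did not differ beyond their spread.

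The receptor chains Lifr, at 10.7 ± 2.78 FPKM (KO) and 16.6 ± 9.31 FPKM (Het), and Il6st, at 8.56 ± 2.40 FPKM (KO) and 7.31 ± 1.85 FPKM (Het), came next, with Lifr above Il6st in all 6 libraries. Lif followed at 1.71 ± 0.659 FPKM (KO) and 1.28 ± 0.371 FPKM (Het). Osmr, Il6 and Il6ra all had means under 1.14 FPKM in both groups, their values overlapped, and they changed order between libraries. Il6 exceeded 21.6% of genes and Il6ra, the alpha chain that binds interleukin-6, exceeded 19.3%. Socs3 and Socs1 were thus the most abundant members in every library, Socs2 and Stat3 came next, the shared chain and Lifr were intermediate, and the interleukin-6 ligand and its own alpha chain were near the bottom.

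**Figure D1:**
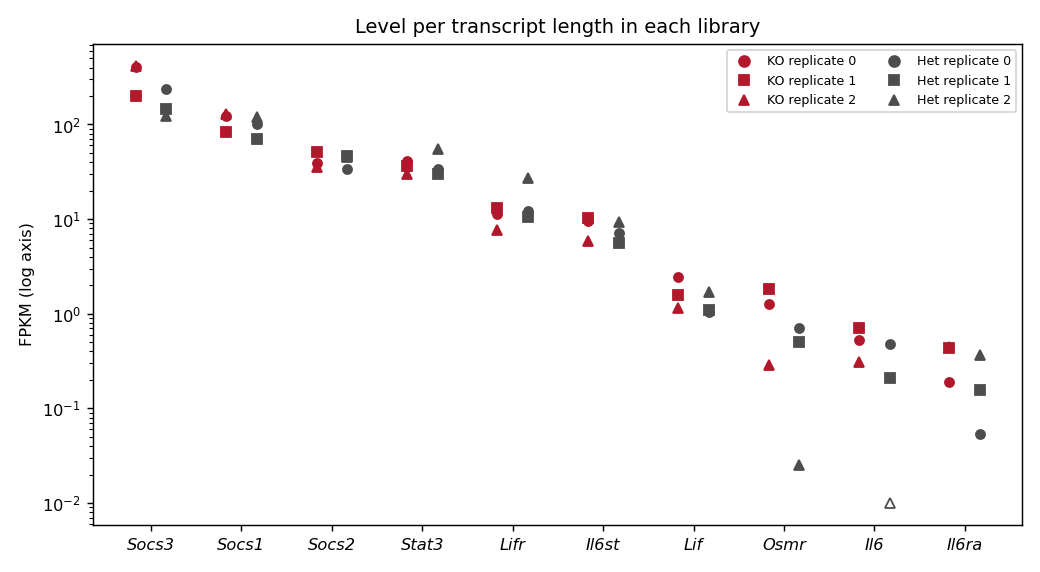
FPKM of each gene in each library on a log axis, ordered by mean level, with KO-labelled libraries in red left of the Het-labelled libraries in grey and the replicate number by marker shape. Socs3 is highest in every library, and Il6 and Il6ra are at or under 0.709 FPKM throughout; the open marker at the bottom of the Il6 column is a listed value of 0.

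In the comparison of the groups, 7 of the 10 members had a positive and 3 a negative log2 fold change, and the median was 0.30. Over all genes tested 49.0% were higher and the median was -0.0095. With edgeR's quasi-likelihood test, adjusted by the Benjamini-Hochberg method over all genes at a threshold of 0.05, 0 of 10 members passed, where 0 of 14632 genes passed (0.0%). Socs3 alone had an unadjusted p under 0.05, 1 of 10 members where 4.29% of all genes did. DESeq2 and limma-voom with quality weights also called 0 members, where DESeq2 called 0.509% of the genes it adjusted. With KO replicate 0, 1 or 2 left out DESeq2 called 0.283%, 0.311% and 0.457% of genes, with Het replicate 0, 1 or 2 left out 1.04%, 0.832% and 1.02%, and with a replicate block 1.19%. Among these 7 fits, those without Het replicate 0 and with the block called 1 member, Socs3, and the others called 0. The values of 1 member, Il6, did not overlap between the groups, where 10.7% of all genes did not. With a count of 0 in Het replicate 2, Il6 needed its counts in the KO-labelled libraries to pass edgeR's default filter on low counts. Its lack of overlap was thus partly set by that filter, and the share of all genes is not a like comparison. The smallest p that an exact permutation test can give for 3 against 3 libraries is 0.1.

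**Figure D2:**
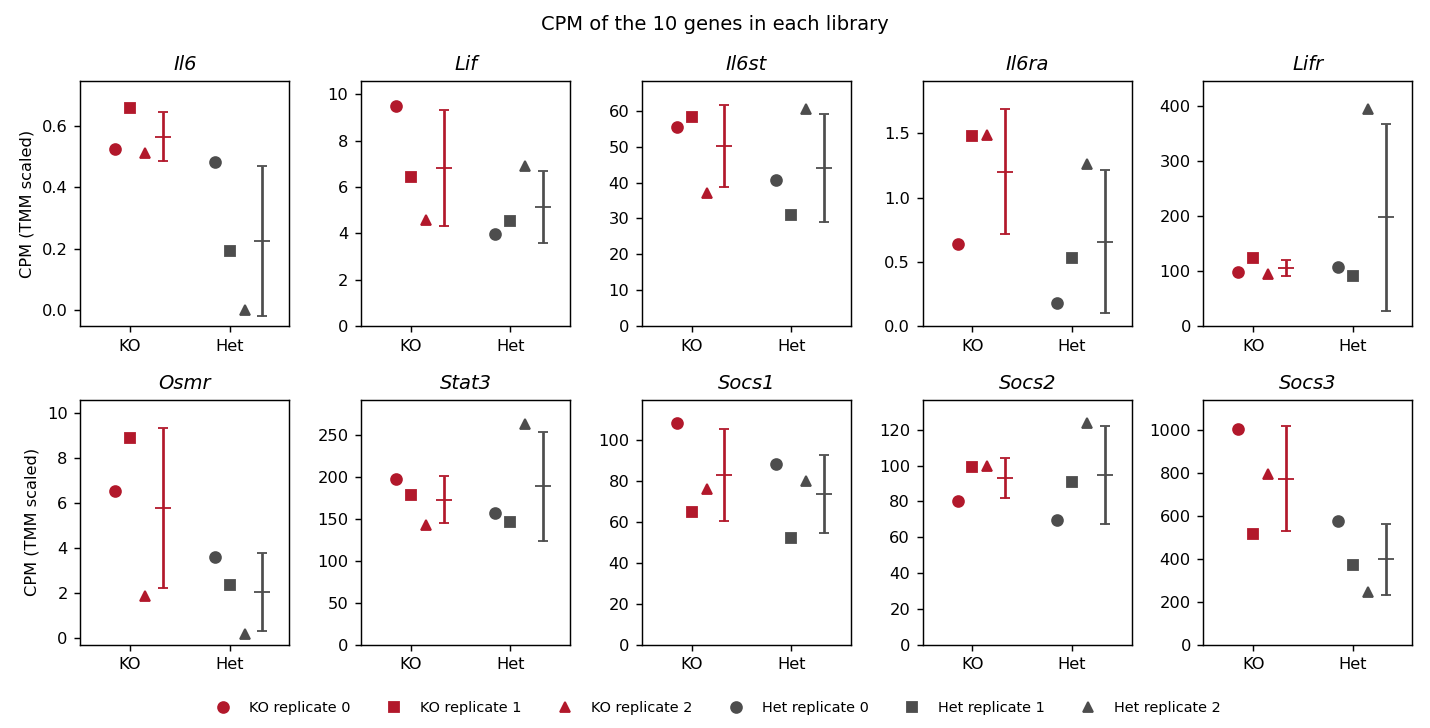
CPM of the 10 genes on linear axes, with the KO-labelled libraries left of the Het-labelled libraries, 1 marker per library, and the mean with its SD as a bar at the right of each group (n = 3 each). Only the Il6 values are separate between the groups; Lifr and Osmr have 1 extreme library, Het replicate 2, at 394 and 0.169 CPM.

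Of the ligands, Il6 had 32, 40 and 27 counts in the KO-labelled libraries and 30, 7 and 0 counts in the Het-labelled libraries. These are 0.525, 0.657 and 0.514 CPM (KO) against 0.482, 0.195 and 0 CPM (Het), and a count of 0 in Het replicate 2 allows a level of up to 0.0843 CPM, for counting error only. All 3 KO-labelled libraries were above the highest Het-labelled library, by a margin of 0.514 against 0.482 CPM. On the FPKM scale the groups overlapped, because KO replicate 2 was at 0.309 and Het replicate 0 at 0.484 FPKM. Its log2 fold change was 1.29 ± 1.37 (SE), edgeR's adjusted p was 0.976, and the exact two-sided permutation p was 0.1. Without Het replicate 2 the value was 0.74, and without Het replicate 0 it was 2.49.

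Lif, which signals through LIFR and gp130, was at 9.49, 6.41 and 4.57 CPM in the KO-labelled libraries and at 3.97, 4.51 and 6.88 CPM in the Het-labelled libraries. Het replicate 2 stood above 2 of the KO-labelled libraries, and the groups overlapped. The fitted log2 fold change was 0.41 ± 0.46 (SE) (edgeR's adjusted p = 0.980), and its 95% interval ran from -0.63 to 1.46. Without KO replicate 0 it was 0.12.

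Of the receptors, the shared chain Il6st was at 55.4, 58.1 and 37.2 CPM in the KO-labelled libraries and at 40.6, 31.0 and 60.4 CPM in the Het-labelled libraries. Each group held high and low libraries, and the highest value was that of Het replicate 2. On the log2 scale the fold change was 0.19 ± 0.29 (SE) (edgeR's adjusted p = 0.981), and it was -0.0070 without Het replicate 1.

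Il6ra was at 0.640, 1.48 and 1.48 CPM in the KO-labelled libraries and at 0.177, 0.529 and 1.26 CPM in the Het-labelled libraries, which corresponds to 39, 90 and 78 counts (KO) against 11, 19 and 45 (Het). The groups overlapped through KO replicate 0 and Het replicate 2. The estimate, as a log2 fold change, was 0.87 ± 1.03 (SE) (edgeR's adjusted p = 0.981), and it was 0.43 without Het replicate 0 and 1.77 without Het replicate 2, where the groups no longer overlapped.

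Lifr was at 98.8, 123 and 94.8 CPM in the KO-labelled libraries and at 108, 90.1 and 394 CPM in the Het-labelled libraries. Het replicate 2 was the highest, and the remaining 5 libraries lay between 90.1 and 123 CPM. The log2 fold change of -0.90 ± 0.50 (SE) (edgeR's adjusted p = 0.976) became 0.10 without Het replicate 2. The lower fitted value of Lifr thus rested on that library.

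Osmr, the chain that pairs with gp130 to bind oncostatin M, was at 6.55, 8.92 and 1.88 CPM in the KO-labelled libraries and at 3.60, 2.37 and 0.169 CPM in the Het-labelled libraries. KO replicates 0 and 1 were above every Het-labelled library, KO replicate 2 was below Het replicates 0 and 1, and Het replicate 2 held 6 counts, against 85 to 543 in the other libraries. Osmr varied most of the members with counts in every library, with a highest value 52.9-fold above its lowest. This rested on Het replicate 2, without which Osmr ran from 1.88 to 8.92 CPM and Il6ra, from 0.177 to 1.48 CPM, varied more. The log2 fold change was 1.49 ± 0.99 (SE) (edgeR's adjusted p = 0.976), and it was 0.97 without Het replicate 2. Osmr and Lifr are neighbours on chromosome 15, with no protein-coding gene in the 215644 bases between them, and in Het replicate 2 their values were extreme in opposite directions.

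Stat3 was at 197, 178 and 142 CPM in the KO-labelled libraries and at 156, 145 and 263 CPM in the Het-labelled libraries. Het replicate 2 was again the highest library, and the other 5 overlapped. The log2 fold change was -0.13 ± 0.26 (SE) (edgeR's adjusted p = 0.981) and 0.20 without Het replicate 2. Stat3 shares 72 exonic bases, 0.756% of its exons, with Stat5a on the opposite strand. Il6ra, at 11 to 90 counts a library, shares 242 exonic bases, 2.80% of its exons, with Gm42809 on the opposite strand. The strand setting of the counting is not given in the sources used here.

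Of the suppressors, Socs3 was at 1006, 517 and 796 CPM in the KO-labelled libraries and at 574, 370 and 247 CPM in the Het-labelled libraries. The groups overlapped in 1 pair, since KO replicate 1 was below Het replicate 0. The mean was 773 ± 246 CPM in the KO-labelled libraries and 397 ± 165 CPM in the Het-labelled libraries (SD, n = 3 each), a fold of 1.95 with a 95% interval, for this gene alone, of 1.13 to 3.35. The log2 fold change was 0.96 ± 0.34 (SE), and edgeR's unadjusted p of 0.0215 placed Socs3 at rank 265 of the genes tested and gave an adjusted p of 0.976. The exact permutation p was 0.2.

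DESeq2 gave Socs3 an adjusted p of 0.346, the lowest of 16 settings, the 7 described next left aside, that ranged from 0.346 to 0.9999. Of 7 further DESeq2 fits chosen after seeing the data, 2 called Socs3. One left out Het replicate 0, the highest Het-labelled library for this gene (adjusted p = 0.0121), where edgeR did not call it (adjusted p = 0.641), and the other had a replicate block (adjusted p = 0.00960), where edgeR did not call it either (adjusted p = 0.797). With each library left out in turn, the edgeR log2 fold change of Socs3 ran from 0.72 without Het replicate 2 to 1.31 without Het replicate 0.

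Socs1, which inhibits Janus kinases directly and is best known as a brake on interferon signalling, was at 108, 64.8 and 76.1 CPM in the KO-labelled libraries and at 88.2, 52.0 and 80.2 CPM in the Het-labelled libraries. The groups overlapped throughout. Its log2 fold change was 0.18 ± 0.27 (SE) (edgeR's adjusted p = 0.981), with a 95% interval of -0.44 to 0.79. It was -0.043 without KO replicate 0 and -0.020 without Het replicate 1.

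Socs2, a brake on growth hormone signalling through STAT5, was at 80.1, 99.4 and 99.8 CPM in the KO-labelled libraries and at 69.7, 90.7 and 124 CPM in the Het-labelled libraries. Both the highest and the lowest library were labelled Het. Its log2 fold change was -0.03 ± 0.24 (SE) (edgeR's adjusted p = 0.9996), with a 95% interval of -0.57 to 0.52. It was 0.086 without KO replicate 0 and 0.22 without Het replicate 2.

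**Figure D3:**
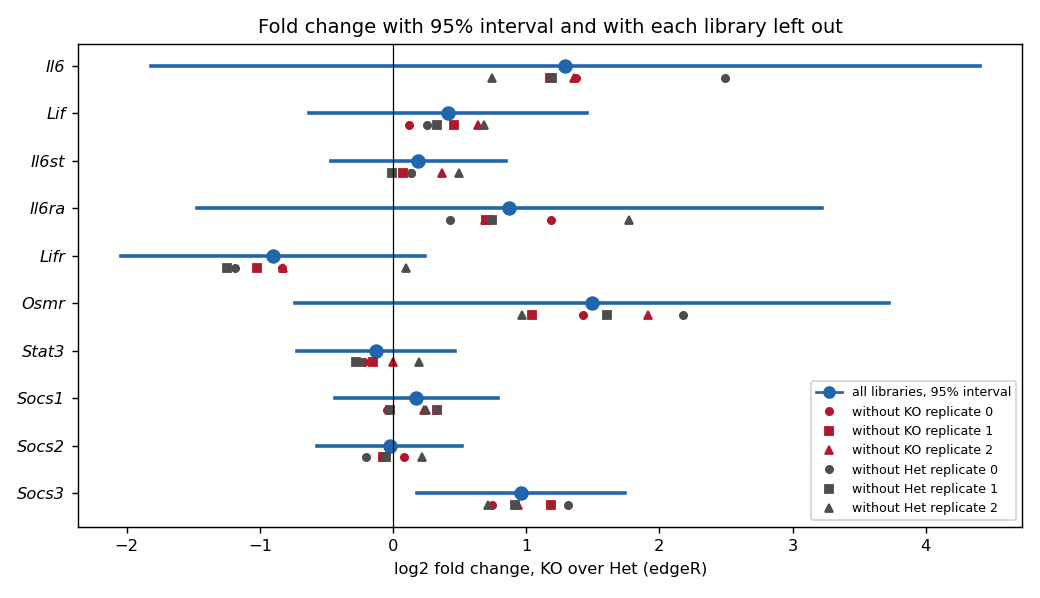
Log2 fold change of each gene in the KO-labelled libraries over the Het-labelled libraries, with its 95% interval in blue and, as small markers below it, the value with each library left out in turn. The interval of Socs3 alone lies to 1 side of 0, and the Lifr value moves from -0.90 to 0.10 when Het replicate 2 is left out.

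Ratios within a library do not depend on library scaling, and 7 were computed after the values had been seen: Socs3 to Socs1, Socs2, Stat3 and Il6st, and Lifr, Osmr and Il6ra to Il6st. The groups did not overlap for 2 of them, on CPM and on FPKM alike. The Socs3 to Socs1 ratio of CPM was 9.30, 7.98 and 10.5 in the KO-labelled libraries and 6.51, 7.10 and 3.08 in the Het-labelled libraries. Of all genes tested, 5.75% had a ratio to Socs1 that did not overlap. The Lifr to Il6st ratio was 1.79, 2.11 and 2.55 in the KO-labelled libraries and 2.66, 2.91 and 6.51 in the Het-labelled libraries, where 6.54% of all genes had a ratio to Il6st that did not overlap. Each gave an exact two-sided permutation p of 0.1, the smallest possible, and 0.35 after Benjamini-Hochberg adjustment over the 7 ratios.

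By the root mean square difference of centred log2 CPM over the 6 libraries, the 5 genes most like Socs3 among 11406 other genes (mean log2 CPM at or above 2) were Arl4d (0.13), Zfp36 (0.17), Fam102a (0.19), Tnfaip2 (0.20) and Rtn4rl1 (0.20). The root mean square of Socs3 itself was 0.67. Zfp36, which encodes the mRNA decay factor tristetraprolin and is an immediate early gene, was at 2214, 1363 and 1656 CPM in the KO-labelled libraries and at 1589, 868 and 700 CPM in the Het-labelled libraries. The genes most like Il6 were Rragd (0.24), Piga (0.37), Tubb3 (0.40), Agfg2 (0.41) and Hist1h2ae (0.43), against 1.44 for Il6 itself. All 5 had their lowest value in Het replicate 2, where Il6 was at 0. With 6 libraries and many genes, closeness of this kind is a description only.

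**Figure D4:**
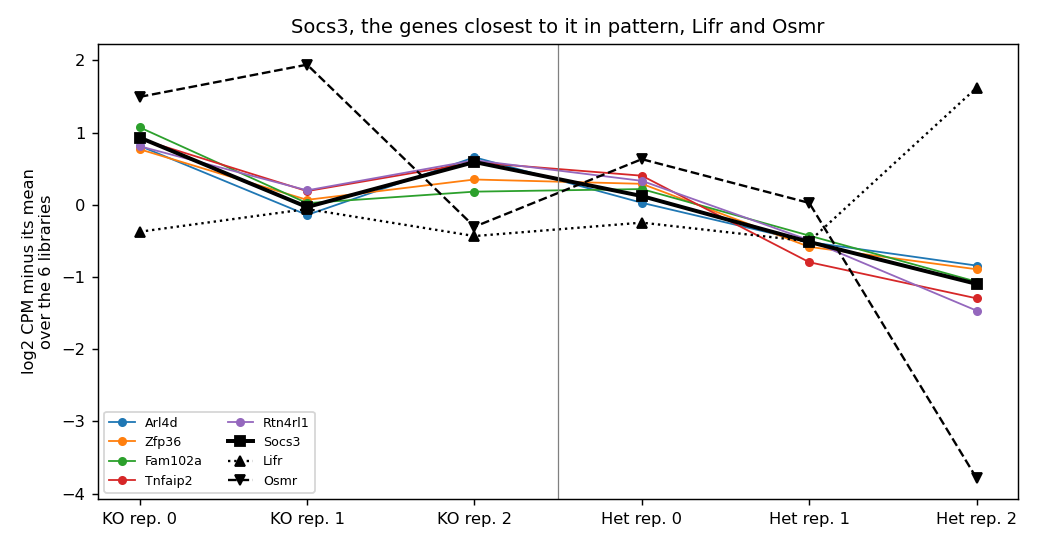
Centred log2 CPM of Socs3, the 5 genes most like it, Lifr and Osmr in each library, with the KO-labelled libraries left of the line and the Het-labelled libraries right of it; lines only join the points of a gene. Socs3 and its 5 neighbours are highest in KO replicate 0 and lowest in Het replicate 2, where Lifr is highest and Osmr lowest.

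Of the other ligands of the family, 6 of 9 were tested, with 4 higher and 2 lower and a median log2 fold change of 0.26. Here and in the lists that follow, 0 genes passed edgeR over all genes, as for all genes tested. Ebi3, a subunit of interleukin-27 and interleukin-35, had 27, 21 and 87 counts in the KO-labelled libraries and 4, 0 and 1 in the Het-labelled libraries (edgeR's unadjusted p = 0.0129, adjusted p = 0.976). Osm, the gene of oncostatin M, had 42, 45 and 173 counts in the KO-labelled libraries and 0, 20 and 0 in the Het-labelled libraries (edgeR's adjusted p = 0.976). Scaled to library size, Osm was at 0.689, 0.739 and 3.29 CPM (KO) and at 0, 0.557 and 0 CPM (Het), a narrower gap than in counts. Ebi3 and Osm were both highest in KO replicate 2. Their CPM did not overlap between the groups, where 5.84% of all genes were higher without overlap. Both genes needed their counts in the KO-labelled libraries to pass edgeR's default filter on low counts. The lack of overlap and the unadjusted p of Ebi3 were thus partly set by that filter, and the share of all genes is not a like comparison. Ctf1, cardiotrophin-1, was at 20.2, 22.2 and 31.7 CPM (KO) and at 31.2, 28.3 and 46.7 CPM (Het) (adjusted p = 0.976).

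Macrophages are known to make oncostatin M, and their markers were set beside these ligands. Summed over 13 macrophage and leukocyte genes, levels were 33.6, 124 and 185 CPM in the KO-labelled libraries and 27.1, 112 and 71.1 CPM in the Het-labelled libraries. Lyz2 was the largest single part of each sum, at 20.5, 63.3 and 102 CPM (KO) and 16.5, 72.7 and 23.5 CPM (Het). Of the 13 genes, 12 had a positive log2 fold change, with a median of 0.72. Adgre1, under its older symbol Emr1, had 4, 179 and 86 counts in the KO-labelled libraries and 0, 10 and 0 in the Het-labelled libraries, and Itgam was at 0.607, 5.83 and 3.84 CPM (KO) and at 1.40, 0 and 0.0843 CPM (Het). C1qa was at 0.148, 2.63 and 3.06 CPM (KO) and at 0, 1.42 and 2.84 CPM (Het). The groups overlapped for every gene of this list, and 0 had an edgeR unadjusted p under 0.05. The part of these markers in the values of Osm, Ebi3, Il6ra and Il6 was not tested.

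Of 3 other receptor chains, 1 was higher and 2 lower, with a median of -0.29. Il11ra1, the alpha chain for interleukin-11, was at 178, 167 and 218 CPM in the KO-labelled libraries and at 283, 225 and 257 CPM in the Het-labelled libraries. The groups did not overlap (lower for 4.83% of all genes), with edgeR's unadjusted p = 0.0451 and adjusted p = 0.976. Cntfr, the chain for ciliary neurotrophic factor, was at 10.8 ± 2.77 CPM (KO) and 13.1 ± 1.53 CPM (Het).

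Of 9 Janus kinases and other STATs, 7 were higher and 2 lower, with a median of 0.33, and 0 had an unadjusted p under 0.05. Jak2 was at 52.8 ± 13.9 CPM in the KO-labelled libraries and 39.2 ± 3.52 CPM in the Het-labelled libraries. Of 13 other negative regulators, which include further Socs genes, PIAS proteins and phosphatases, 8 were higher and 5 lower, with a median of 0.14. Socs6 was at 51.0 ± 3.69 CPM (KO) and 40.7 ± 2.94 CPM (Het) and Socs5 at 14.8 ± 3.92 CPM (KO) and 10.1 ± 1.72 CPM (Het).

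Of 22 STAT3 target genes, 16 were higher and 6 lower, with a median of 0.26. The targets with the smallest p were Fos at 4278 ± 858 CPM (KO) and 2789 ± 746 CPM (Het) and the interleukin-4 receptor gene Il4ra at 11.7 ± 4.58 CPM (KO) and 4.55 ± 3.59 CPM (Het) (edgeR's adjusted p = 0.976 for each). These were 2 of 22 with an unadjusted p under 0.05 and a higher value, where 2.58% of all genes were. Fos and Junb also stood in the list of dissociation genes.

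Of 21 genes of dissociation and the immediate early response, 17 were higher and 4 lower, with a median of 0.45, and 4, all higher, had an unadjusted p under 0.05, where 2.58% of all genes did in that direction. Jun was at 2370 ± 447 CPM (KO) and 1542 ± 209 CPM (Het) and Klf4 at 151 ± 41.3 CPM (KO) and 91.9 ± 24.3 CPM (Het). The summed level of the list was 25091, 16597 and 24191 CPM in the KO-labelled libraries and 18776, 12091 and 17202 CPM in the Het-labelled libraries. Socs3 is itself known to respond within minutes to such stimuli, and within each group Socs3 and the list sum were both highest in replicate 0. In the Het-labelled libraries they parted at the low end, where the sum was lowest in replicate 1 and Socs3 in replicate 2. The part of dissociation in the Socs3 values was not tested.

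Of 14 tested genes of the NF-kB and interleukin-1 pathways, which can also induce Il6, 9 were higher and 5 lower, with a median of 0.086. Cxcl2 had 72, 19 and 240 counts in the KO-labelled libraries and 3, 6 and 13 in the Het-labelled libraries, and Nfkb1 was at 23.2 ± 1.69 CPM (KO) and 39.7 ± 22.3 CPM (Het) (edgeR's adjusted p = 0.976 for each). Tnfaip3 and Ccl2 of that list also stood among the STAT3 targets. Of 7 genes of the growth hormone and STAT5 axis, which Socs2 restrains, 1 (Cish) was higher and 6 lower, with a median of -0.22. Stat5a, Stat5b, Cish and Bcl6 of this axis also stood in the lists above. Prlr was at 6.38 ± 0.789 CPM (KO) and 11.1 ± 6.23 CPM (Het) and Stat5b at 36.1 ± 13.8 CPM (KO) and 45.9 ± 7.04 CPM (Het).

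**Figure D5:**
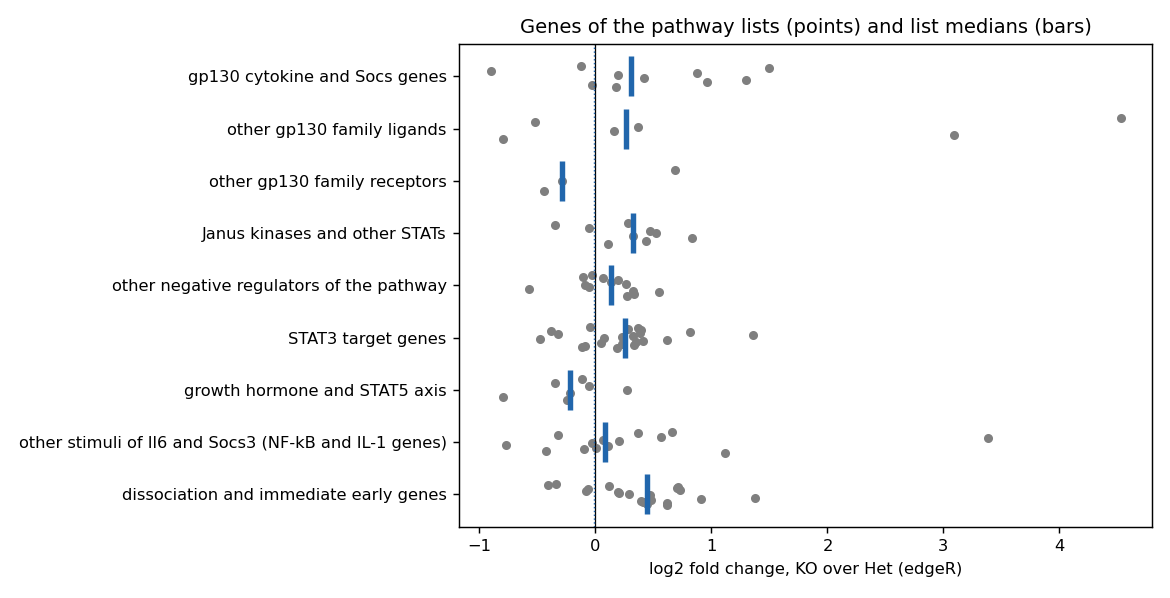
Log2 fold change of the KO-labelled libraries over the Het-labelled libraries for each tested gene of the lists (points) and the list medians (blue bars); the dotted line is the median of all genes tested. Among these pathway lists, which leave out the cell type markers, medians run from -0.29 for the other receptors to 0.45 for the immediate early genes, and the points furthest right are Ebi3, Cxcl2 and Osm, which have few counts.

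Markers of cell types that can respond to or make these cytokines differed between libraries. All 8 osteoblast genes had a positive log2 fold change, with a median of 0.83, and their sum was 12910 to 21371 CPM in the KO-labelled libraries and 4994 to 12046 CPM in the Het-labelled libraries. Dmp1 was at 308 ± 206 CPM (KO) and 62.1 ± 29.3 CPM (Het) and Spp1 at 503 ± 67.2 CPM (KO) and 252 ± 68.0 CPM (Het). DESeq2 called Dmp1 (adjusted p = 0.00146) and Spp1 (adjusted p = 0.0226), where edgeR did not (adjusted p = 0.634 and 0.648). Of the 8 osteoblast genes, 4 were higher with an edgeR unadjusted p under 0.05, where 2.58% of all genes were. Follicle and fibroblast genes were split, 6 higher and 6 lower, with a median of -0.089 and a sum of 47866 to 85795 CPM (KO) and 33338 to 67569 CPM (Het), and Twist1 was at 172 ± 25.5 CPM (KO) and 232 ± 32.9 CPM (Het).

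Among 7 tested endothelial genes 2 were higher and 5 lower (median -0.51), with a sum, over all 8 in the table, of 61.5 to 77.3 CPM in the KO-labelled libraries and 71.3 to 95.5 CPM in the Het-labelled libraries, Pecam1 at 1.07 ± 0.595 CPM (KO) and 3.88 ± 2.57 CPM (Het) and Kdr at 3.60 ± 1.06 CPM (KO) and 7.21 ± 1.79 CPM (Het). Eng was the largest single part of each sum, at 41.1 to 63.5 CPM (KO) and 45.2 to 68.7 CPM (Het). Among 8 dental epithelium genes 3 were higher and 5 lower (median -0.070), with a sum of 5188 to 10839 CPM (KO) and 5281 to 8513 CPM (Het) and Odam at 157 ± 30.6 CPM (KO) and 385 ± 308 CPM (Het). Among 6 tested neutrophil genes 4 were higher and 2 lower (median 0.23). Of these, DESeq2 called Mpo as lower (adjusted p = 0.0135), where edgeR did not (adjusted p = 0.664). Summed over the 7 neutrophil genes of the table, which add the untested Elane (66.2 CPM in Het replicate 1 and 33.8 CPM in Het replicate 2), levels were 87.6 to 288 CPM in the KO-labelled libraries and 4.63 to 465 CPM in the Het-labelled libraries, with Mpo at 1.07, 0.312 and 1.01 CPM (KO) against 0.354, 228 and 52.4 CPM (Het) and S100a9 at 4.19, 9.14 and 14.0 CPM (KO) against 1.22, 10.8 and 1.46 CPM (Het). Of 7 erythroid genes listed 3 were tested, 2 higher and 1 lower, with Alas2 at 24.4 ± 11.1 CPM (KO) and 9.61 ± 2.92 CPM (Het) and Slc4a1 at 0.952, 6.57 and 9.51 CPM (KO) against 0, 2.70 and 5.81 CPM (Het). Their part in the members' values was not tested.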

How the data were processed

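Nextera XT libraries were made from SMART-Seq amplified cDNA of 6 cell sorts, per the labels' protocols. The submitters' processing notes name Bowtie2 2.2.1, TopHat2 2.0.13, HTSeq, DESeq2, Cuffdiff, Cufflinks, FastQC and mm10, with no role for each. The authors deposited whole-number counts per gene symbol, a second table of estimated counts for 23107 symbols, rounded here before use, and FPKM values. Rescaled and log-transformed copies of the counts were not used. FPKM per CPM of a member differed between libraries by up to 1.80-fold (Il6), so the scales can rank libraries differently. For Socs3 it was 0.523 in KO replicate 2 and 0.499 in Het replicate 2, against 0.385 to 0.408 in the other libraries. For Socs2 it was 0.360 in KO replicate 2 and 0.367 in Het replicate 2, against 0.487 to 0.512 in the others. For Lif, Il6ra and Stat3 the replicate 2 libraries did not stand apart.

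Titles gave each library its group and number. Separate animals are nowhere stated, so the p-values reflect the spread of these samples alone, and that spread may be technical. Reads of amplified cDNA without molecular identifiers are not independent molecules. No pair of libraries agreed within sampling noise, the smallest chi-square per degree of freedom being 93.8.

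The quasi-likelihood test of edgeR 4.0.16 in R 4.3.3 was run on all genes passing its default filter, with TMM scaling, two-sided, and Benjamini-Hochberg adjustment over all genes. CPM are TMM scaled. Standard errors came from the F statistic. Alternatives used DESeq2 1.42.0, limma 3.58.1 on log2(FPKM + 1) and log2(FPKM + 0.1), where fold changes understate low genes, RLE factors, other filters, a replicate block and each library left out. The edgeR script was tested on simulated data. Gene positions are from GENCODE M21 and upstream sequences from RefSeq. All members, and of each other list the 2 genes with the smallest p, were named, except where an item is not reported here. Osm, Pthlh, Ibsp, Junb and C1qa, and the ratios, were added after their values were seen. Members and lists were chosen with earlier results of these data known.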

Additional observations from a re-analysis of the deposited data

How the results depend on the processing

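edgeR called 0 genes over all genes and 0 members. It called 1 gene at a threshold of 0.1 and 0 to 1 with a library left out (1 without Het replicate 0). DESeq2 called 87 genes, and limma-voom with quality weights and each of the 3 FPKM settings called 1, none of them a member. Chosen after seeing the data, DESeq2 with a library left out called 48, 49 and 78 genes without KO replicate 0, 1 and 2 and 167, 137 and 175 without Het replicate 0, 1 and 2, and 0 to 1 members, the 1 being Socs3 without Het replicate 0. The median log2 fold change of the members was 0.30 and ran from 0.11 to 0.59 over all settings.

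Leaving aside the DESeq2 fits chosen after seeing the data, 146 fold changes of members kept their direction and stayed past no threshold, and 10 had the other sign. In those DESeq2 fits 60 did so, 8 had the other sign and 2, both Socs3, passed the threshold. With a library left out, edgeR gave Socs1 values from -0.043 (without KO replicate 0) to 0.33, and -0.020 without Het replicate 1 (DESeq2 -0.062 and -0.021). Socs2 was 0.090 in limma-voom and ran from -0.21 to 0.22 (without Het replicate 2), with DESeq2 at 0.068 without KO replicate 0 and 0.22 without Het replicate 2. Il6st ran from -0.0070 without Het replicate 1 (DESeq2 -0.0081) to 0.50. Lifr ran from -1.25 to 0.10 and Stat3 from -0.28 to 0.20, both highest without Het replicate 2 (DESeq2 0.10 and 0.20), and Stat3 was 0.13 in limma-voom. The causes were not tested beyond the library left out.

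The number of members whose groups did not overlap was 1 on CPM, 0 on FPKM, and 1 to 3 with a library left out, where the share over all genes was 16.7% to 23.9%. Il6 was among these members whichever library was left out, and the limit from the filter on low counts holds there too.

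The main fit did not pair the samples by replicate number. The correlation of deviations between same-numbered libraries was 0.169, 0.0746 and 0.0694, and every library correlated best with its own number. KO replicate 2 and Het replicate 2 also shared an FPKM per CPM apart from the other libraries for several members, as given above for Socs3 and Socs2. Whether same-numbered libraries share a batch or an origin was not tested. With the replicate block edgeR called 0 genes and 0 members, and Socs2 was 0.0062. With the block DESeq2, chosen after seeing the data, called 185 genes, among them 1 member, Socs3 (adjusted p = 0.00960), and Socs2 was 0.00081. Il6, Il6ra and Osmr gave no value under the FPKM filter, nor did Il6 under the CPM filter. Depth limits Il6 most, at 0 to 40 counts a library.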
